A study of Mus musculus with 18 samples.

Results

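The change in gene expression between 2 h and 6 h of retinoid treatment was measured in F9 cells, a mouse embryonal carcinoma line that grows as undifferentiated stem-like cells and turns into endoderm when given retinoic acid. The step of a gene was its log2 level at 6 h minus its log2 level at 2 h under the same ligand, so a step of 1.00 is a doubling. It used 8 of the 18 arrays of the series: 1 array at 2 h and 1 at 6 h for each of 4 ligands, which gave 4 pairs with no array in common. All-trans retinoic acid (ATRA), which binds every retinoic acid receptor (RAR), was given at 1 µM. BMS753, described in the labels as RARα-specific, and BMS641, described as RARβ-specific, were given at 1 µM, and BMS961, described as RARγ-specific, at 0.1 µM, so BMS961 was not matched in dose to the other ligands. The remaining arrays were the same ligands at 24 h and 48 h (8 arrays) and ethanol vehicle at 48 h (2 arrays). All cells were of the 1 line, grown in serum on gelatine, and carried no engineered change that the labels name. Each pair compared a ligand with itself, and no vehicle array of 2 h or 6 h was used, so a step common to all 4 ligands and a change with time in culture cannot be told apart. The labels do not say whether the arrays of a ligand came from separate cultures. The p-values therefore measure only how far the 4 ligands' steps spread, and a real difference between ligands counts as spread.

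Retinoic acid receptors are nuclear receptors that sit on DNA with a retinoid X receptor partner, usually on direct repeats of a short half-site. Ligand exchanges corepressors for coactivators, and the first target genes respond without new protein synthesis. Among them are Rarb, which encodes a receptor of the family, Cyp26a1, which encodes the enzyme that clears retinoic acid, Stra8, a regulator of entry into meiosis, and Hox genes at the 3′ ends of their clusters. Later, F9 cells lose stem cell factors and make GATA factors, laminin and collagen IV of primitive and parietal endoderm. Fresh medium or handling of cultures is known to move immediate early genes and genes of sterol supply within hours, whatever the ligand.

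The direct repeat known from these retinoid targets, the half-sites GTTCA and AGTTCA with any 5 bases between them, was searched on both strands in promoter windows from RefSeq (GRCm38.p6) of 250 bases before and 50 bases after the start of transcription. It was found in 11 of 32851 windows (0.0335%), and 2 of them belonged to Rarb and Cyp26a1. The window of Gm32342, on the other strand, overlapped that of Cyp26a1. Both held the same match, so that site was counted in each. Genes without a window in this set were not searched. The stretches of Rarb and Cyp26a1 are shown because the levels and steps of these genes are given for each ligand further on. Capitals mark the match, the second of which is the reverse complement of the letters searched. The Rarb stretch is chr14:16575477-16575596 on the minus strand, with the match 52 to 37 bases before the start. The Cyp26a1 stretch is chr19:37697688-37697807 on the plus strand, with the match 32 to 17 bases before the start. Both lie upstream of the annotated start, outside the transcribed region.
Rarb: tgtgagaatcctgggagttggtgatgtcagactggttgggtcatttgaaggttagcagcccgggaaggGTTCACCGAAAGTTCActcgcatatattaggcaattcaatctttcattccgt
Cyp26a1: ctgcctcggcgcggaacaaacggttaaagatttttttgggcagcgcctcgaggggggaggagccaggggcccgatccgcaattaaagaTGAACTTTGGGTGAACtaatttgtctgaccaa
A match is a description of the letters, not evidence of binding. For ATRA, BMS961, BMS753 and BMS641 in turn, Rarb stepped by -0.08, 0.57, 0.69 and 0.11, and Cyp26a1 by 0.24, 1.02, 0.45 and -0.08. Of the other windows with the match, 3 belonged to genes on the array, Lcorl, Blvrb and Tnfsf13b, whose steps lay between -0.42 and 0.41. The half-site AGGTCA repeated with a spacer of 5 bases, and repeated with a spacer of 2 bases, was each time found in 3 windows (0.00913%), none of them of a gene chosen here on late arrays or for a step shared by all ligands.

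The 8 arrays carried the markers of embryonal carcinoma. Over them the stem cell factor Pou5f1 lay between 12.04 and 12.21, Nanog between 11.43 and 11.90 and Sox2 between 10.74 and 11.75, and the steps of all 10 such markers lay between -0.38 and 0.38. The fibroblast markers had a median level of 5.44 to 5.80 per array, the neural ones 5.57 to 6.03 and the trophoblast ones 5.11 to 5.61. Array medians over 19938 genes ran from 5.86 to 6.01, and precision is limited by how few arrays there are. A number of arrays stood apart from what their labels would give. Over all genes the BMS753 2 h array correlated best with BMS641 at 6 h (r = 0.997) and the BMS753 6 h array with BMS641 at 2 h (0.997), both above the array of their own ligand (0.995). The steps of BMS753 and BMS641 had a correlation of -0.38 across genes, and of -0.32 across the 12146 probe sets without a listed gene. Genes are not independent replicates, so these are descriptions. The ATRA 2 h array was another, with ligand targets and most endoderm markers above every other 2 h array, as given below with vehicle values. In some genes both early ATRA arrays stood apart. At 2 h and 6 h of ATRA Dnmt3l was at 7.01 and 7.35, against 9.7 to 10.5 on the early BMS arrays. With BMS961 Dnmt3l was at 7.73 and 7.01 at 24 h and 48 h. Coch was at 6.77 and 6.4 at 2 h and 6 h of ATRA, against 8.4 to 9.6 on the early BMS arrays. Whether any of these arrays carry another time than their label was not tested, and the labels were used as given; an exchange of the times of a ligand would turn the sign of all its steps. The common step is therefore also given without each of these pairs.

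**Figure D1:**
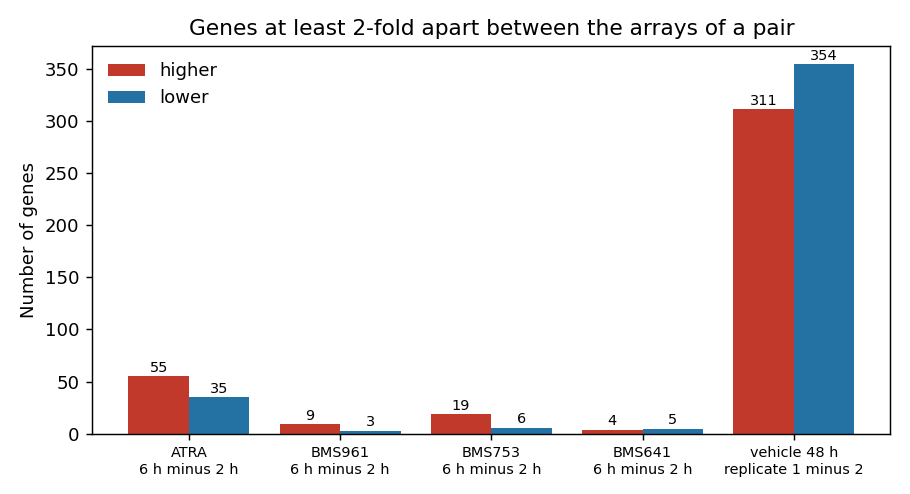
Number of genes (of 19938) at least 2-fold higher (red) or lower (blue) on the 6 h array than on the 2 h array of each ligand, and between both vehicle arrays of 48 h. Each ligand pair held fewer such genes than the vehicle pair, where 311 were higher and 354 lower on replicate 1.

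Few genes moved far between 2 h and 6 h with any ligand. ATRA had the most 2-fold steps, with 55 genes higher (0.276% of those measured) and 35 lower (0.176%). BMS753 had 19 higher (0.0953%) and 6 lower (0.0301%), BMS961 had 9 (0.0451%) and 3 (0.015%), and BMS641 had 4 (0.0201%) and 5 (0.0251%). Each count was below that between the vehicle arrays, of a single agent and time, of which 311 genes were higher and 354 lower on replicate 1, as the plot of genes at least 2-fold apart shows. The typical absolute step of a gene was 0.13 with ATRA and BMS961, 0.15 with BMS753 and 0.14 with BMS641, against 0.23 between the vehicle arrays. With 1 array each, these counts have no replicate check.

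The common step asked which genes moved the same way whatever the ligand. No gene passed: limma called 0 of 19938 (0%) at a Benjamini-Hochberg adjusted p under 0.05, and the smallest adjusted p was 0.452, that of Pla2g7. Before adjustment 697 genes (3.5%) had p under 0.05, 219 of them higher at 6 h (1.1%) and 478 lower (2.4%). The median standard error was 0.10, and for 99.9% of genes the 95% interval of the common step lay within 2-fold either way. Without the ATRA pair, the BMS961 pair, the BMS753 pair or the BMS641 pair the calls were 0 each time, with smallest adjusted p-values of 0.695, 1, 0.604 and 0.0675 by limma and 733, 334, 1395 and 746 genes at unadjusted p under 0.05.

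By size alone, 0 genes stepped at least 2-fold the same way in all 4 ligands. Nearest on the way up was Lgals9, whose smallest step was 0.56 (1.48-fold), ahead of Dmrt1 at 0.44 and Zic2 at 0.39. On the way down it was Pla2g7, whose smallest step was 0.60 downward (1.52-fold), ahead of Podxl and Coch, with 0.39 and 0.36 downward. At 1.5-fold Pla2g7 was the single gene that met the rule. Steps of any size had 1 sign in all 4 ligands for 615 genes upward (3.08%) and 1627 downward (8.16%). Upward genes were thus 27.4% of those with a common sign, a share that became 32.3% with arrays centred on their medians and 47.6% after quantile normalization. The BMS753 arrays had medians of 5.97 at 2 h and 5.86 at 6 h, so centring moved all BMS753 steps up by over 0.1. In 50 genes (0.251%) every 6 h array lay above every 2 h array and in 220 (1.1%) below.

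The 10 genes with the largest upward and the 10 with the largest downward steps shared by all 4 ligands, ranked by the smallest of the 4, are named here as values. They were chosen after their values were seen, and none passed the test. Lgals9 encodes galectin-9, a sugar-binding lectin. Its levels at 2 h and 6 h were 7.50 and 8.07 with ATRA, 7.20 and 8.25 with BMS961, 7.14 and 7.72 with BMS753, and 6.65 and 7.22 with BMS641. Each 6 h array was above its own 2 h array, but the BMS641 6 h array stayed below the ATRA 2 h array, so the times overlapped. The common step of Lgals9 was 0.69 ± 0.11 (SE; limma adjusted p = 0.717).

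Dmrt1, a transcription factor of the male germ line, had levels at 2 h and 6 h of 9.18 and 9.68 with ATRA, 7.32 and 8.10 with BMS961, 6.95 and 7.51 with BMS753, and 6.59 and 7.04 with BMS641. The ligands differed from each other by more than the step did: the ATRA arrays were the highest and the BMS641 arrays the lowest at both times. Zic2 and Zic5, zinc finger transcription factors of early neural development, had the largest common steps of the group, 0.90 ± 0.16 and 0.89 ± 0.13. With the mean of its probe sets Zic5 had a common step of 0.676, below that of Lgals9 (0.693). Zic2 went from 7.62 to 9.08 with ATRA, 6.69 to 7.37 with BMS961, 6.52 to 7.59 with BMS753 and 6.58 to 6.97 with BMS641. Zic5 went from 9.13 to 10.30, 8.19 to 9.19, 7.76 to 8.79 and 7.81 to 8.17 in the same order. Both showed their smallest step with BMS641. The vehicle arrays of 48 h held Zic2 at 8.95 and 6.58 and Zic5 at 9.23 and 7.72, a wider gap than the largest step.

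The other 6 genes on the way up had common steps of 0.37 to 0.61. Nr6a1, the orphan nuclear receptor GCNF that represses Pou5f1 after retinoic acid, stepped by 0.45, 0.59, 0.55 and 0.31 with ATRA, BMS961, BMS753 and BMS641. Its promoter window was the single one of the 14 available for the 20 named genes that held the cyclic AMP element TGACGTCA, found in 1.79% of all windows. The CArG box of serum response factor (1.63% of windows) and the E-box CACGTG (7.15%) were in none of the 14. Rhob, a small GTPase of the actin cytoskeleton, stepped by 0.83, 0.31, 0.99 and 0.31. Porcn, the acyltransferase that lipidates WNT proteins, stepped by 0.33 to 0.41. Mymx, which encodes the fusion micropeptide of myoblasts, Mreg and Ndrg2 made up the rest, with smallest steps of 0.33, 0.31 and 0.30. For none of the 10 did every 6 h array lie above every 2 h array.

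Pla2g7, the secreted hydrolase of platelet-activating factor and oxidised phospholipids, had the largest downward step by the smallest of the 4 ligands. Its levels at 2 h and 6 h were 7.13 and 6.03 with ATRA, 8.32 and 7.41 with BMS961, 8.49 and 7.81 with BMS753, and 8.60 and 8.0 with BMS641. The ATRA 2 h array was below 3 of the 6 h arrays, but each ligand's 6 h array was lower than its own 2 h array by at least 1.52-fold. The common step was -0.82 ± 0.10 (95% interval -1.06 to -0.59, limma adjusted p = 0.452). Coch, which encodes the matrix protein cochlin, had steps of -0.36, -1.16, -0.75 and -0.46 with ATRA, BMS961, BMS753 and BMS641. Slc27a2, an acyl-CoA synthetase for very long chain fatty acids, had -0.71, -1.23, -0.52 and -0.31.

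In 4 of the 10 downward genes every 6 h array lay below every 2 h array, against 1.1% of all genes. They were Emp1, an epithelial membrane protein, Flnc, the actin cross-linker filamin C, Atp10d, a phospholipid flippase, and Ccdc136. Emp1 was at 7.39, 7.84, 7.54 and 7.78 at 2 h with ATRA, BMS961, BMS753 and BMS641, and at 6.11, 7.03, 7.23 and 7.31 at 6 h. Flnc was at 6.75, 6.55, 6.32 and 6.42 at 2 h and at 6.18, 6.05, 6.04 and 6.10 at 6 h. Atp10d was at 8.17 to 8.40 at 2 h and 7.71 to 7.94 at 6 h, and Ccdc136 at 6.10 to 6.24 and 5.81 to 5.91. These gaps were narrow, and the choice of the genes favoured them.

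The last of the group were Podxl, the sialomucin podocalyxin (steps -0.81, -0.63, -0.41 and -0.39), Pcolce2, an enhancer of procollagen processing (-0.94, -0.79, -0.47 and -0.30), and Mexis. Mexis is a long noncoding RNA that lies near Abca1, the cholesterol exporter, and is induced by the sterol-sensing LXR receptors. Mexis stepped by -0.35 to -0.48 in all 4 ligands, and Abca1, a member of the LXR list, by -0.68, -0.57, -0.15 and -0.29. The mean level of Mexis was not above the median over all genes, so it was among the dimmer genes. Whether Mexis and Abca1 share a response was not tested.

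**Figure D2:**
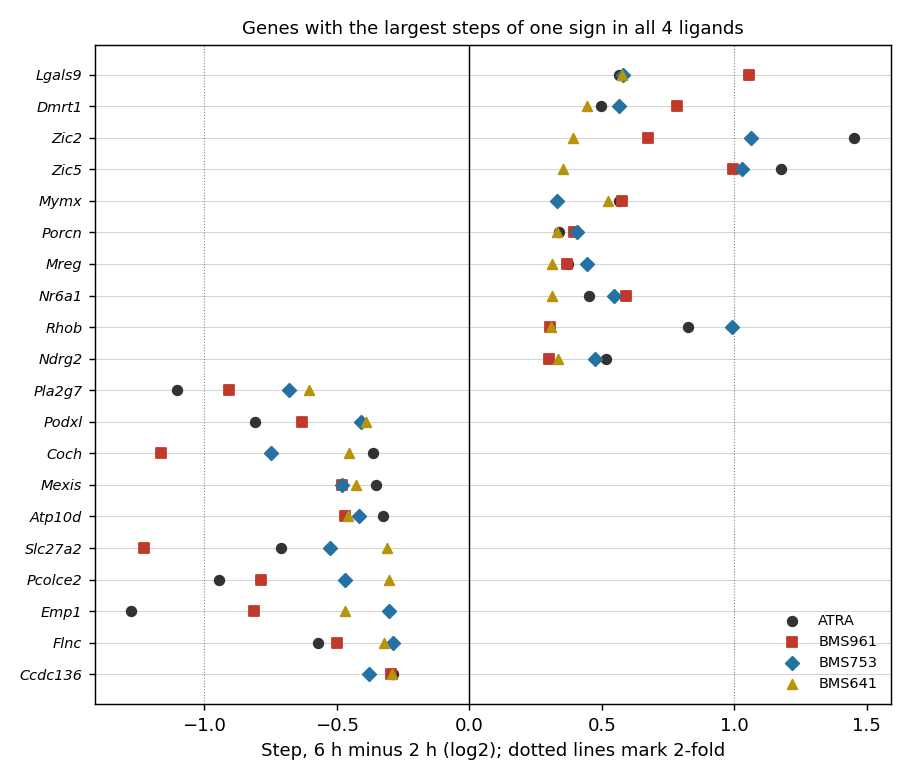
Step from 2 h to 6 h (log2) in each ligand for the 10 genes with the largest upward and the 10 with the largest downward steps shared by all 4 ligands. Pla2g7 lies left of -0.60 in every ligand, and BMS641 (triangles) tends to the smaller steps, as with Zic2 at 0.39 and Pcolce2 at -0.30.

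Of the 32 lists of pathway and cell type genes, cholesterol synthesis had the largest share of members lower at 6 h in all 4 ligands. This pathway makes sterols from acetyl-CoA and is switched off by SREBP control when cells hold enough cholesterol. Under ATRA, BMS961, BMS753 and BMS641, 20, 19, 15 and 17 of the 20 measured members were lower, with median steps of -0.48, -0.13, -0.09 and -0.16 beside 0.02, -0.08, -0.05 and 0.00 over all genes. In all 4 ligands together 11 of 20 (55%) were lower, against 8.16% of all genes, and 0 were higher. None of the 20 was called, 8 had an unadjusted p under 0.05, and the median common step was -0.20. The count was 6 of 20 with centred arrays (30%, all genes 6.8%), where the BMS753 median turned to 0.01, and 10 after quantile normalization (50%, all genes 6.2%). Without the ATRA pair it was 11 of 20 lower in the other 3 ligands, beside 17.2% of all genes. The steps outside ATRA were small, none of them past 1.5-fold.

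Cyp51, the sterol demethylase, was at 9.18 and 8.39 at 2 h and 6 h with ATRA, 8.80 and 8.49 with BMS961, 8.90 and 8.88 with BMS753, and 9.14 and 8.84 with BMS641. The times overlapped, and the common step was -0.36 ± 0.12 (unadjusted p = 0.017 by limma). Insig1, the sterol-regulated brake on SREBP processing, stepped by -0.56, -0.23, -0.13 and -0.26, and Sqle, squalene epoxidase, by -0.86, -0.20, -0.14 and -0.13. Hmgcs1, which makes the HMG-CoA that enters the pathway, stepped by -0.54, -0.09, 0.03 and -0.24, so it was not lower with BMS753. At 48 h vehicle replicate 1 held Hmgcs1 at 9.59 and replicate 2 at 11.27, a wider gap than any of these steps.

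**Figure D3:**
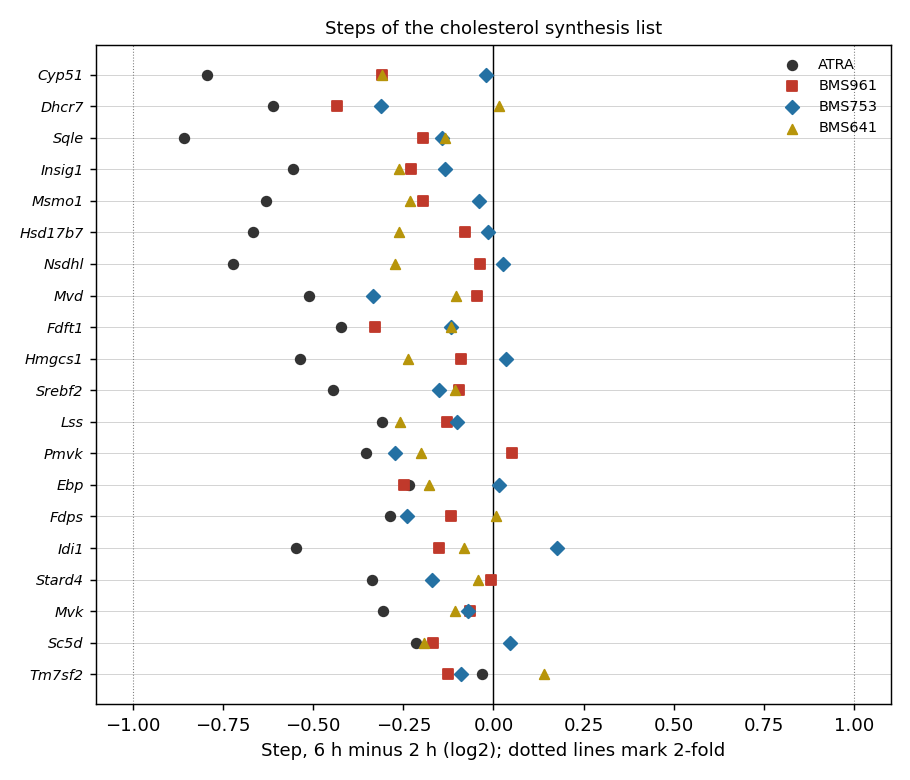
Step from 2 h to 6 h (log2) of the 20 measured genes of cholesterol synthesis in each ligand, in the order of their common step. ATRA (circles) lies left of 0 for every gene, down to -0.86 for Sqle, while the BMS ligands lie between -0.43 and 0.18.

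Neighbouring lists gave smaller shares. Of 13 LXR and lipid genes 5 were lower in all 4 ligands (38.5%), among them Abca1, Scd1, Scd2 and Fasn of fatty acid synthesis, 2 with centred arrays (15.4%) and 5 after quantile normalization (38.5%). Of 27 MYC and ribosome biogenesis genes 8 were lower in all 4 (29.6%), 1 with centred arrays (3.7%, all genes 6.8%) and 5 after quantile normalization (18.5%, all genes 6.2%). Of 7 metallothionein and zinc genes 3 were, all metal transporters (Slc30a1, Slc30a10 and Slc39a10), while the metallothioneins Mt1 and Mt2 stepped by -0.08 to 0.20. Of 40 immediate early and serum response genes 3 were higher in all 4 ligands (7.5%) and 7 lower (17.5%). Fos stepped by 0.16, -0.10, -0.43 and 0.43 with ATRA, BMS961, BMS753 and BMS641, with no common sign. Of 17 circadian clock genes 2 were higher (11.8%) and 4 lower (23.5%). In the Hox A and B clusters 3 of 19 were higher (15.8%) and 0 lower, while pluripotency had 2 of 29 each way (6.9%). Over all genes 3.08% were higher and 8.16% lower in all 4 ligands. None of these lists held a called gene.

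**Figure D4:**
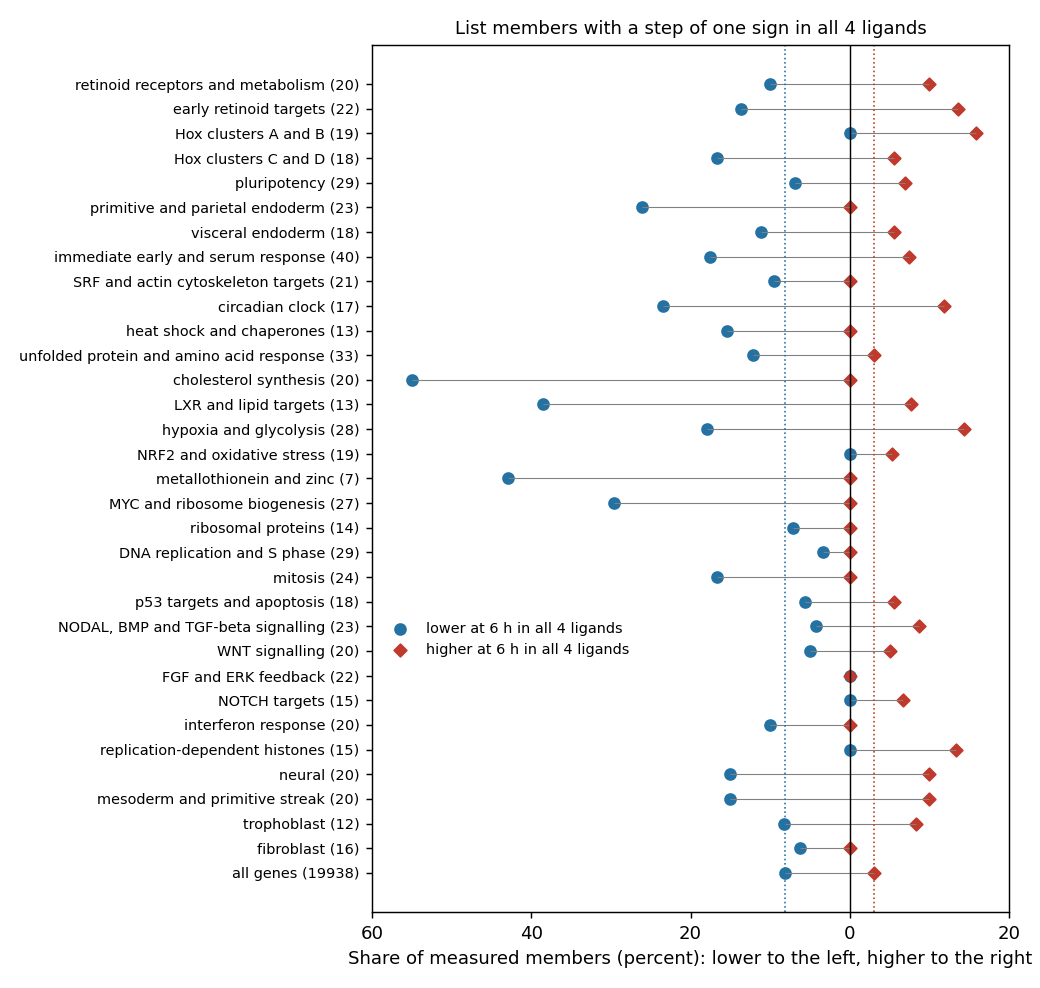
Share of the measured members of each list (number in brackets) whose step was below 0 (blue, drawn to the left) or above 0 (red, drawn to the right) in all 4 ligands; dotted lines are the shares of all genes, 8.16% and 3.08%. Cholesterol synthesis reaches 55% on the left, and the small metallothionein list, with 7 members, 42.9%.

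The question of which genes stepped with ATRA and BMS961 only was answered by size and by a test of the difference. By size, 0 genes stepped at least 2-fold with both and under 1.5-fold with BMS753 and BMS641. In the test of the step of ATRA with BMS961 against that of BMS753 with BMS641, limma called 0 of 19938 genes (0%), with 218 at unadjusted p under 0.05 (1.09%). This test was coarser than that of the common step, since it set 2 ligands against 2. Its median standard error was 0.21, and for 96.0% of genes the 95% interval of the difference lay within 2-fold either way. On the probe set used, Zic5 was nearest to the 2-fold rule on the way up, with 1.18 and 1.00 (1.997-fold for the smaller), but it stepped by 1.03 with BMS753 too.

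At 1.5-fold 10 genes met the rule, 1 upward and 9 downward. The upward one was Greb1l, a relative of the growth regulator Greb1. Its levels at 2 h and 6 h were 6.82 and 7.55 with ATRA, 5.36 and 6.14 with BMS961, 4.95 and 5.45 with BMS753, and 5.29 and 5.52 with BMS641. All 4 ligands thus stepped upward, and the class difference was 0.39 ± 0.20 (95% interval -0.07 to 0.85, limma adjusted p = 1.00). The downward ones were Emp1, Pcolce2, Podxl, Slc27a2, Tmem14a, Cdh9, Soga3, Eid1 and 2900055J20Rik. The first 5 were lower with BMS753 and BMS641 as well, with steps of -0.29 to -0.52. Cdh9, a cadherin of the nervous system, was the clearest contrast, at -0.77 and -0.88 with ATRA and BMS961 against -0.00 and -0.17, a class difference of -0.74 ± 0.19. Eid1, an inhibitor of the p300 coactivator, stepped by -0.78 and -0.70 against 0.07 and -0.12.

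A grouping of BMS961 with BMS753 was also counted. At 1.5-fold, upward steps under ATRA, BMS961, BMS753 and BMS641 were counted for 1.82%, 0.476%, 0.818% and 1.02% of all genes, and downward steps for 1.09%, 0.833%, 1.56% and 0.507%. With BMS961 and BMS753, and not the same way with ATRA or BMS641, 21 genes stepped upward and 6 downward at 1.5-fold. The counts were 1 and 9 for ATRA and BMS961 only, and 3 and 10 for BMS961 and BMS641 only. Across all genes the BMS961 step correlated at 0.02 with that of BMS753 and at 0.22 with that of BMS641, the highest of any pair. The grouping thus did not hold across all genes. Whatever the steps of ATRA and BMS641, 26 genes stepped upward with BMS961 and BMS753 and 8 downward. Of the 26, 20 stepped by under 1.5-fold with ATRA. Past 1.5-fold ATRA moved only 1.82% of all genes upward and 1.09% downward, so a small ATRA step is no trait of the 26. With BMS641 19 of the 26 stepped upward too, as did 50.7% of all genes. At 2 h of ATRA 21 of the 26 were already above their 6 h level with BMS961. The share of all genes in that order was not counted. Stra8 was the single gene at least 2-fold higher with both BMS961 and BMS753. Its levels at 2 h and 6 h were 10.15 and 10.29 with ATRA, 5.98 and 8.25 with BMS961, 5.36 and 7.02 with BMS753, and 4.87 and 4.62 with BMS641. It stepped 4.81-fold with BMS961 and 3.16-fold with BMS753, was at its high level from 2 h on with ATRA, and stayed low with BMS641. The vehicle arrays held Stra8 at 8.44 and 5.17, so a step of this size also lay between both vehicles.

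The pattern was followed in genes chosen on other arrays. A set of 17 genes, by a rule chosen after seeing the data, was taken from the 24 h and 48 h arrays alone: those whose 6 late ATRA, BMS961 and BMS753 levels were all at least 2-fold above both late BMS641 levels. They included the receptor gene Rarb, Stra8, the retinaldehyde reductase Dhrs3, the endoderm factor Gata6, the water and glycerol channel Aqp3, the ERK phosphatase Dusp9, the autophagy receptor Calcoco2, Clgn, Stox2, Greb1l, Ankrd44, Adgra2, Camk2n1, Chrna5, Pmepa1, Timp2 and Tll1. From 2 h to 6 h the median step of the set for ATRA, BMS961, BMS753 and BMS641 was 0.03, 0.70, 0.50 and 0.11. Upward steps were seen in 10, 16, 15 and 14 of the 17, where 54.2%, 31.5%, 40.3% and 50.7% of all genes stepped upward. With centred arrays the counts were 7, 16, 16 and 10. The set and the early arrays share the ligands but no array, and with 1 array each these are values with no test. The choice fixed the late levels only, but genes that end high with a ligand are favoured to rise with it early. The early steps are therefore no separate support for the late pattern.

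The levels of the set showed where each ligand stood. With ATRA the median level was 8.23 at 2 h, 7.83 at 6 h, 8.52 at 24 h and 9.28 at 48 h. With BMS961 it was 5.99, 7.06, 8.07 and 8.66, and with BMS753 5.79, 6.37, 7.05 and 7.82, so both climbed at each time. With BMS641 it was 5.54, 5.60, 5.69 and 5.66. At 2 h the ATRA array was above the 3 other ligands in 17 of 17 genes. The vehicle arrays had set medians of 7.08 and 5.27, replicate 1 was above replicate 2 in 17 of 17, and ATRA at 2 h was above vehicle replicate 1 in 15 of 17. The part of this vehicle difference in the high ATRA level at 2 h was not tested. The share of all genes with each of these orders was not counted, so the counts do not set the set apart from differences between whole arrays.

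**Figure D5:**
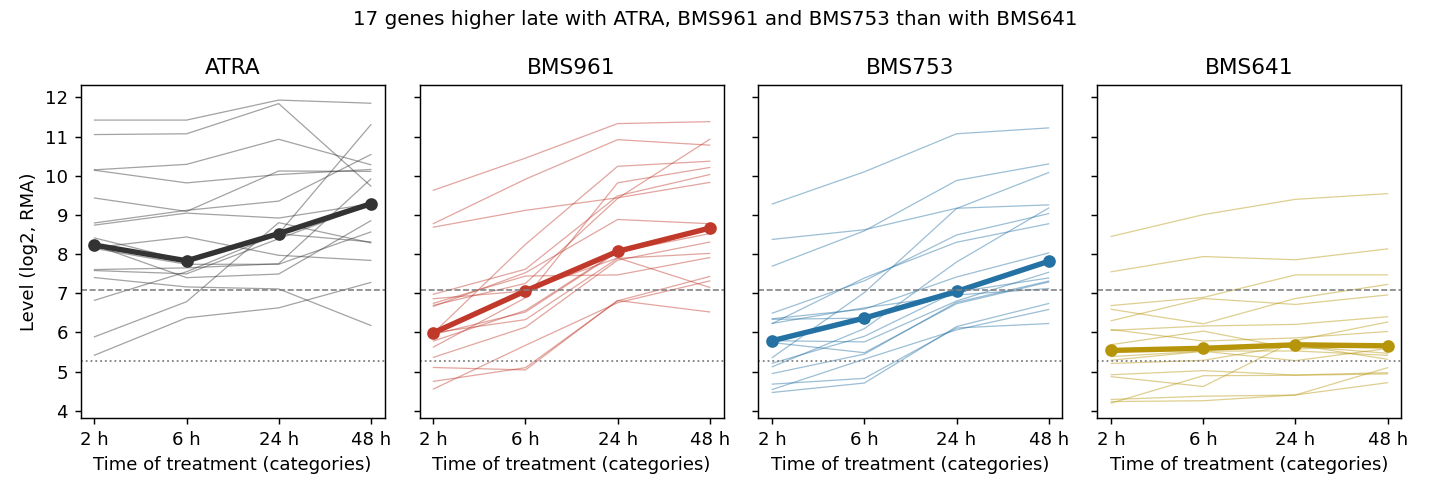
Log2 level of the 17 genes chosen on the 24 h and 48 h arrays (thin lines) and their median (thick line) at each time, drawn as evenly spaced categories, for the 4 ligands; the dashed and dotted lines are the medians on vehicle replicates 1 and 2. The median climbs from 5.99 to 7.06 between 2 h and 6 h with BMS961 and from 5.79 to 6.37 with BMS753, starts at 8.23 with ATRA and stays near 5.60 with BMS641.

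Within the set Rarb was at 7.58 and 7.50 at 2 h and 6 h with ATRA, 5.95 and 6.52 with BMS961, 5.22 and 5.90 with BMS753, and 4.92 and 5.03 with BMS641. Aqp3 was at 11.05 and 11.07, 8.78 and 9.91, 7.69 and 8.59, and 6.30 and 6.87 in the same order. Both genes had the same order of ligands at each time, ATRA above BMS961 above BMS753 above BMS641. Calcoco2 stepped by 1.26 and 0.97 with BMS961 and BMS753 against -0.34 and 0.08 with ATRA and BMS641. Dhrs3 differed from it: its step was 0.78 with BMS961 and -0.03 with BMS753. Gata6 stepped by -0.59 with ATRA and 0.56 with BMS961, and Timp2, an inhibitor of matrix proteases, by -0.83 and 0.34. Chrna5 and Tll1 had their largest step with ATRA, 0.95 and 0.90.

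At 1.5-fold on the late arrays the set grew to 68 genes, with median steps of 0.05, 0.43, 0.26 and 0.06 in the order ATRA, BMS961, BMS753 and BMS641. The mirror set, lower late with the same 3 ligands, held 20 genes, with median steps of -0.02, -0.55, -0.38 and -0.15. Both sets thus gave the larger early steps to BMS961 and BMS753, upward and downward. Of the genes chosen on the late arrays by any of the 2-fold rules, 13 had a promoter window among those searched. The rest had none there, so whether they hold the repeat was not tested. Of the 13, 2 held the repeat shown above: Rarb and, from the rule that follows, Cyp26a1. The repeat searched is the one known from these 2 genes, so the count is no test of enrichment.

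Late expression that was high with ATRA and BMS961 and low with BMS753 and BMS641 was found, by the same 2-fold rule, in Cyp26a1, Hoxa5 and Stra6, the retinol uptake receptor. Cyp26a1 was at 10.05 and 10.30 at 2 h and 6 h with ATRA, 8.04 and 9.07 with BMS961, 6.56 and 7.00 with BMS753, and 4.94 and 4.86 with BMS641, and the vehicle arrays were at 5.05 and 4.85. Its order of ligands was the same at 2 h as at 6 h. Hoxa5 was at 7.84 and 8.71, 5.20 and 5.92, 4.86 and 5.52, and 5.25 and 5.50, with vehicle at 5.57 and 5.52. Hoxa5 stepped upward with all 4 ligands, by 0.87, 0.72, 0.66 and 0.24, with a common step of 0.62 ± 0.11 (limma adjusted p = 0.791). Stra6 stepped by 0.65, 0.28, -0.12 and 0.17.

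The other retinoid genes moved little. Of 20 genes of retinoid receptors and metabolism 2 were higher in all 4 ligands (10%), Rxrg and Crabp1, and 2 lower (10%), Rdh10 and Rdh11. Rara and Rarg, the receptors that F9 cells express before treatment, stepped by -0.28 to 0.22. Of 22 early retinoid targets 3 were higher (13.6%) and 3 lower (13.6%) in all 4. Over all genes 3.08% were higher and 8.16% lower in all 4. Nrip1, a corepressor of nuclear receptors, stepped by 0.40, 0.36, 0.10 and 0.07, and Hoxb1 by 0.37, -0.02, -0.02 and 0.36. Hoxb4 and Hoxb5 stepped by 0.39 and 0.23 with ATRA, 0.57 and 0.56 with BMS961, 0.01 and 0.09 with BMS753, and 0.11 and -0.00 with BMS641.

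Most of the large ATRA steps had no counterpart of that size with another ligand: 53 of the 55 upward and all 35 downward genes did not step 2-fold the same way with any BMS ligand. Such steps were rare over all genes: upward in 0.0451%, 0.0953% and 0.0201% with BMS961, BMS753 and BMS641, downward in 0.015%, 0.0301% and 0.0251%. Few genes of any set would thus share them. H2ac1, a histone gene, was at 8.39 and 10.50 with ATRA, a step of 4.32-fold, and stepped by 0.02 to 0.08 with the BMS ligands. Tfap2c, a transcription factor of trophoblast and germ cells, was at 5.53 and 7.62 with ATRA. It was at 6.65 to 7.56 at 2 h with the other ligands, so the ATRA 2 h array was the low one. The immediate early genes Jun, Egr1 and Dusp1 stepped by 1.34, 1.20 and 1.04 with ATRA and by -0.31 to 0.08 with the other ligands. Jun was at 6.12 at 2 h of ATRA and between 7.19 and 7.50 on the 7 other arrays. Myc was at 9.98 and 8.57 with ATRA and between 9.12 and 9.54 with the BMS ligands.

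Markers of primitive and parietal endoderm were high at 2 h of ATRA and lower at 6 h. Dab2, an endocytic adaptor of that lineage, was at 7.73 and 5.74 with ATRA, 5.57 and 5.52 with BMS961, 5.93 and 5.92 with BMS753, and 5.86 and 5.70 with BMS641. With ATRA it was at 7.80 at 24 h and 11.27 at 48 h, and the vehicle arrays were at 8.20 and 5.51. Of the 8 early arrays the ATRA 2 h array was the highest, and the 7 others overlapped. In RNA of whole cultures, fewer cells of a type and less RNA per cell cannot be told apart. Cubn, the endocytic receptor cubilin, was at 6.32 and 4.73 with ATRA and between 4.38 and 4.70 with the BMS ligands. Its vehicle arrays were at 6.44 and 4.63. The list of visceral endoderm markers did not share the fall. Of its 18 measured members 9 were lower at 6 h of ATRA, with a median step of 0.00, and 1 fell by 1.5-fold or more. The collagen IV genes Col4a1 and Col4a2 stepped by -1.09 and -1.02 with ATRA, and the laminin gene Lama1 by -1.04, against -0.24 to 0.13 with the BMS ligands.

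Of the 23 measured endoderm markers 20 were lower at 6 h than at 2 h of ATRA, against 45.8% of all genes. Their median step was -0.43, and 14 had their highest early level at 2 h of ATRA. The sum of their log2 levels was 166.0 at 2 h of ATRA and 152.4 at 6 h, and on the BMS arrays it lay between 152.5 and 154.4. Medians were -0.17, -0.09 and 0.01 with BMS961, BMS753 and BMS641. In all 4 ligands 6 of 23 were lower (26.1%, all genes 8.16%), none was called, and among the 6 were Foxa2 and Lama1. Vehicle replicate 1 was above replicate 2 in 18 of the 23, and whether the ATRA 2 h array shares that difference was not tested. The shares of all genes were not counted for the 18 or for the 14.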

How the data were processed

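Biotin-labelled total RNA was hybridised to Affymetrix whole-transcript arrays. The authors deposited log2 levels per probe set. Per the submitters' processing notes, RMA and Affymetrix Expression Console 1.1 were used. No scan date or detection call was at hand. The labels gave each sample its agent and time. Of 35556 probe sets 21789 had 1 gene symbol, 1621 several and 12146 were not listed; where a gene had more than 1 probe set (999 genes) the brightest by its mean of 18 arrays was taken. Dim genes were not filtered, and 19938 genes entered the fits. The members and lists were chosen with earlier results of these data known.

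The common step was fitted with limma 3.58.1 (R 4.3.3) to the 8 arrays at 2 h and 6 h, with ligand as a block (3 residual degrees of freedom, eBayes prior 6.08), and the difference of the step between ATRA with BMS961 and BMS753 with BMS641 as an interaction (2 residual degrees of freedom, prior 5.96). A gene was called at an adjusted p under 0.05 (Benjamini-Hochberg over all genes, two-sided). Single ligands, with 1 array a time, were given as values without a test. Genes were to be named from the calls; as there were none, those with the largest step by the smallest of the 4 ligands, the size groups and list members were named. Of 717 list members 655 were measured. Each fit was also run on simulated data holding 200 changed genes, with the spread taken from the real fit of the common step. Of genes changed 2-fold, the fit of the common step recovered 100% and that of the class difference 32.8%. At 4-fold the class difference recovered 98.5%. Alternatives covered scaling, dim genes, probe set means, eBayes options, other sets of arrays, no block, fold limits and leaving out each ligand. Chosen after seeing the data were a covariate from unlisted probe sets, the late sets (both the 2-fold rule and its 1.5-fold form), and the count of cholesterol genes lower in all 4 ligands with its other scalings. Tables and figures were made with matplotlib 3.10.9, pandas 2.3.3 and numpy 2.4.6 under Python 3.11.15, and RefSeq (GRCm38.p6) gave promoter sequences.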

Additional observations from a re-analysis of the deposited data

Results flagged for a closer look

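The signs were compared in 104 genes: those with the largest steps shared by all 4 ligands, the late sets at 2-fold, and the 10 largest steps each way of each ligand. In 5 of them (4.81%) the steps of ATRA and BMS961 both had one sign and those of BMS753 and BMS641 both the other, as was so in 1436 of all 19938 genes (7.20%). The test of the difference passed for none of them (limma adjusted p = 1.00 for each). Cubn, the endocytic receptor cubilin, had a class difference of -1.04 (ATRA and BMS961 minus BMS753 and BMS641), from steps of -1.60, -0.31, 0.09 and 0.08. The chemokine receptor gene Cxcr4 had 0.937, from steps of 1.42, 0.10, -0.23 and -0.12. Igf2bp3, which encodes an RNA-binding protein of early development, had 0.932, from steps of 1.43, 0.03, -0.11 and -0.29. Slx1b, a structure-specific endonuclease gene, had 0.994, from steps of 1.52, 0.02, -0.33 and -0.12. In these 4 genes ATRA had the largest step, and the BMS961 step was 0.31 or less in size. The olfactory receptor gene Olfr59 had 0.948, from steps of 0.17, 0.20, -1.42 and -0.11, with BMS753 the largest, at levels of 4.54 and 3.12.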

How the results depend on the processing

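The common step and the class difference each held 0 called genes under every alternative run, 15 for the first and 11 for the second, the 2-fold minimum included. For the common step the smallest adjusted p by limma ran from 0.0505 (eBayes with trend and robust) to 1 and the genes at unadjusted p under 0.05 from 331 to 1395; for the class difference they ran from 0.103 to 1 and from 94 to 1193. Leaving out each ligand in turn gave 0 to 0 calls in both. At 1.5-fold in place of 2-fold, 1 gene stepped with all 4 ligands and 10 with ATRA and BMS961 only. With arrays centred on their medians 6 cholesterol synthesis genes in place of 11 were lower in all 4 ligands. None of the 20 named common steps changed sign in up to 13 settings each. These genes were chosen for 1 sign in all 4 ligands, so leaving out a ligand could not turn it. Several other settings change the spread and not the step, so the count is no check of these genes. The fits were paired by ligand, since the labels give the retinoid arrays no replicate numbers; without that block 0 genes were called and 343 had an unadjusted p under 0.05. With 1 array for each ligand and time, a step of a single ligand cannot be set against repeated cultures, and dim genes were not filtered.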
